A study of Homo sapiens with 9 samples.

Results

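The 9 genes described here handle retinoic acid (RA) inside the cell: the receptors RARA, RARB and RARG, the carriers CRABP1 and CRABP2, the degrading enzymes CYP26A1, CYP26B1 and CYP26C1, and the retinal reductase DHRS3. They were chosen by name, and the 14 array probes whose gene name was one of the 9 were taken, out of 42405 probes on each array. The cells were NT2, a clone (NTERA-2 cl. D1) of a human embryonal carcinoma line that turns towards neural cells in RA, and the study asked whether organophosphorus compounds (OPs) disturb the first days of that process. All cells were in differentiation medium with 10 μM RA for 4 days (96 h), and RNA was measured on 9 one-colour arrays, 3 for control cells without OP, 3 for cells exposed to 1 μM paraoxon and 3 for cells exposed to 5 μM mipafox. Paraoxon is the active form of the insecticide parathion, and mipafox is an OP that inhibits neuropathy target esterase. No array held cells without RA, so a level below cannot be set against cells before differentiation, and the doses of both compounds differed. Within a group the arrays are lettered A, B and C. The labels call them biological and the paper technical replicates, so the p-values measure the spread between these arrays, which may be technical.

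RA made from vitamin A enters the nucleus and binds receptors of the RAR family, which sit on DNA beside a partner of the RXR family. CRABP2 carries RA to the receptors, CRABP1 holds it in the cytoplasm, and the CYP26 enzymes oxidize it. CYP26A1, RARB and DHRS3 are textbook RA-induced genes. Through CYP26A1 and DHRS3 the pathway is a loop that limits its own signal. Many RA-induced genes carry a pair of receptor half-sites in the same direction near their start.

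These half-sites are shown because they are the kind of sequence the receptors are known to bind. RefSeq promoter windows (GRCh38.p14, 250 bases before to 50 bases after each start) were searched on both strands for pairs in one direction with 5 bases between them, where a half-site could be the consensus AGGTCA or a variant of it, written AGTTCA in the first case, GGGTCA in the next one and GGTTCA in the last. Such a pair was present in 2 of the 17 windows of the 9 genes, one of RARB and one of CYP26A1, and in 0.0883% of all 35116 windows. The same half-sites with 1 or 2 bases between them were in 0.131% and 0.0399% of all windows and in 0 of the 17, and no pair overlapped another. A match is a description of the letters, and 0 matches says only that these letters are not in the window. The 120 bases before the start are printed 5′ to 3′ on the plus strand, on which both genes lie, with the paired half-sites in capitals and single ones in lower case.

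RARB (chr3:25428143-25428262): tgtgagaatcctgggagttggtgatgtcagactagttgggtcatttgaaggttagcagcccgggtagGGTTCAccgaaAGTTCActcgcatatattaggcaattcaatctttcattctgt

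CYP26A1 (chr10:93073773-93073892): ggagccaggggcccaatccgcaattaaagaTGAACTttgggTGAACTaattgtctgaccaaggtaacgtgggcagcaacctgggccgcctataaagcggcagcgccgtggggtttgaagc

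In RARB the pair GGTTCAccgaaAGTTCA ran from base -53 to -37 relative to the start and pointed with the gene. In CYP26A1 the pair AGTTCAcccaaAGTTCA ran from -90 to -74 on the opposite strand, so it appears above as its reverse complement.

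None of the 9 genes passed the test for a difference between groups. All 14 probes passed the filter, 13 of them well above background on every one of the 9 arrays, and 0 of 14 was called in limma for paraoxon against control, for mipafox against control, or for paraoxon against mipafox. A call needed an adjusted p (Benjamini-Hochberg over 29134 probes) under 0.05 and a log2 fold change beyond 1 in either direction. The call rate over all tested probes was 0%, 0% and 0% in the same comparisons, so the 0 says nothing particular about these genes. At an unadjusted p under 0.05, 0 of the 14 member probes passed in each comparison, where 13.3% (3884) of all tested probes passed for paraoxon against control, 6.96% (2027) for mipafox against control and 4.02% (1172) for paraoxon against mipafox. In bulk RNA, fewer cells of a type and less RNA per cell cannot be told apart.

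How far the changes are bounded depended on the slides that carried the arrays, described below. For paraoxon against control, 12 of 14 member probes had a 95% confidence interval inside ±1 on the log2 scale, beside 77.5% of all tested probes, and for mipafox 13 of 14 did, beside 82.2%. The probes outside it were those of CYP26B1 and, with paraoxon, the dimmer probe of CYP26C1. With the slide as a block, only 4 of 14 had such an interval for paraoxon, beside 38.9% of all tested probes, those of CYP26A1, DHRS3, RARG and the bright CRABP2 probe, and 10 of 14 for mipafox, beside 65.6%. The fold changes of the 14 probes ranged from -0.36 to 0.29 (log2) with paraoxon, with 11 below 0 and a median of -0.11, where the median over all tested probes was 0.01. With mipafox they ranged from -0.37 to 0.37, with 7 below 0 and a median of 0.03 beside 0.00 over all tested probes. For paraoxon, 9 of the 14 lay below 0 after quantile normalization and 8 in the authors' processed values, with medians of -0.11 and -0.03. With the slide as a block 10 did, with a median of -0.34.

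**Figure D1:**
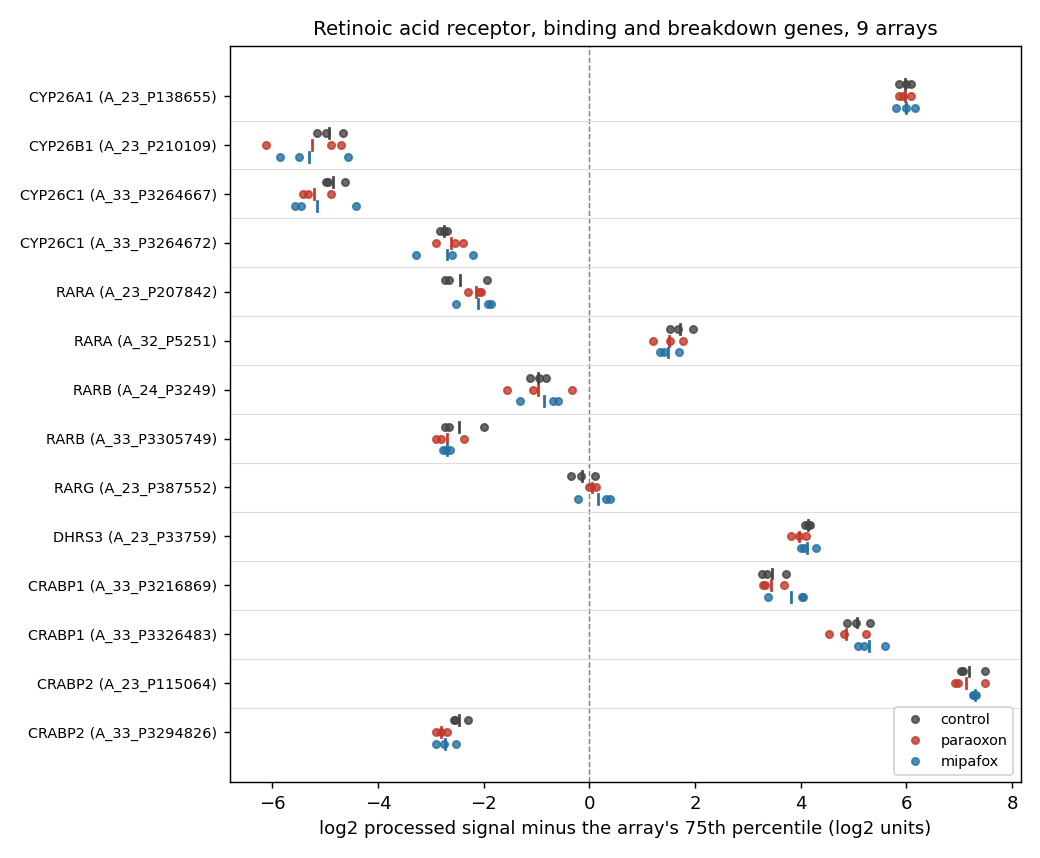
Level of each of the 14 probes on the 9 arrays, as log2 processed signal minus the 75th percentile of the array (x axis, log2 units), with a row per probe, a point per array and a short vertical bar at each group's mean. The 3 groups lie over each other in all rows but the last, where the 3 paraoxon arrays of the dimmer CRABP2 probe sit below the 3 control arrays.

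Levels are given throughout as log2 of the processed signal minus the array's 75th percentile, so that 0 is the 75th percentile of the array, and a probe's level also holds its own binding strength and is not compared with that of another probe. Probe positions are on hg19.

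Among the enzymes that break RA down, CYP26A1, the main RA-induced one, was bright and steady. Its probe A_23_P138655 (chr10:94837013-94837072) read 5.86, 6.09 and 6.00 in control, 6.09, 5.87 and 5.94 with paraoxon, and 6.16, 5.99 and 5.81 with mipafox, in the order A, B, C kept below. The 3 groups overlapped, the 9 values lay within 0.36 of each other, and the control mean was 63.5 times the array's 75th percentile. The control, paraoxon and mipafox means were 5.99 ± 0.12, 5.97 ± 0.11 and 5.99 ± 0.18 (SD, n = 3). The paraoxon level was 0.987 times control (95% confidence interval 0.786 to 1.24, limma adjusted p = 0.979) and the mipafox level 0.999 times control (0.795 to 1.25, adjusted p = 0.998). In the authors' processed values the sign turned, and the differences were 0.25 ± 0.14 and 0.19 ± 0.14 (log2, SE).

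CYP26B1, the enzyme of hindbrain, limb and germ cells, was near the detection limit. Probe A_23_P210109 (chr2:72357430-72357489) read -5.16, -4.99 and -4.66 on the control arrays, -4.89, -4.71 and -6.13 on the paraoxon arrays, and -5.85, -5.49 and -4.56 on the mipafox arrays. Paraoxon C was the one array on which it was not well above background, and its processed signal there was 11.9. The groups overlapped, and the differences from control were -0.31 ± 0.41 with paraoxon and -0.37 ± 0.41 with mipafox (log2, SE; limma adjusted p = 0.827 and 0.940). Without paraoxon C the paraoxon difference was 0.13, so its direction rested on that array. The mipafox difference was -0.09 without mipafox A and -0.73 without mipafox C.

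CYP26C1, the remaining enzyme of the family, lies beside CYP26A1 on chromosome 10, and the starts of their probes are 7779 bases apart. Its brighter probe A_33_P3264672 (chr10:94829234-94829293), designed on the transcript AK131099 and the one member probe whose accession was not matched in RefSeq, read -2.70, -2.82 and -2.75 in control. It read -2.39, -2.91 and -2.54 with paraoxon and -2.21, -2.60 and -3.29 with mipafox. The control arrays lay within the range of both treated groups. The difference was 0.14 ± 0.26 for paraoxon and 0.06 ± 0.26 for mipafox (log2, SE). The dimmer probe A_33_P3264667 (chr10:94824196-94824255), between -5.57 and -4.42 over the 9 arrays, gave -0.36 ± 0.30 and -0.30 ± 0.30, so the pair of CYP26C1 probes differed in sign and neither left the replicate spread.

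DHRS3, which turns retinal back into retinol and so lowers RA synthesis, was the steadiest after CYP26A1 by its range over the 9 arrays among the brightest probes of the 9 genes. Probe A_23_P33759 (chr1:12628110-12628169) read 4.09, 4.17 and 4.13 in control, 4.10, 3.97 and 3.82 with paraoxon, and 4.29, 4.06 and 4.01 with mipafox. Paraoxon A lay inside the control range and paraoxon B and C below it. The paraoxon level was 0.892 times control (95% confidence interval 0.718 to 1.11, limma adjusted p = 0.684) and the mipafox level 0.994 times control (0.800 to 1.23, adjusted p = 0.998).

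**Figure D2:**
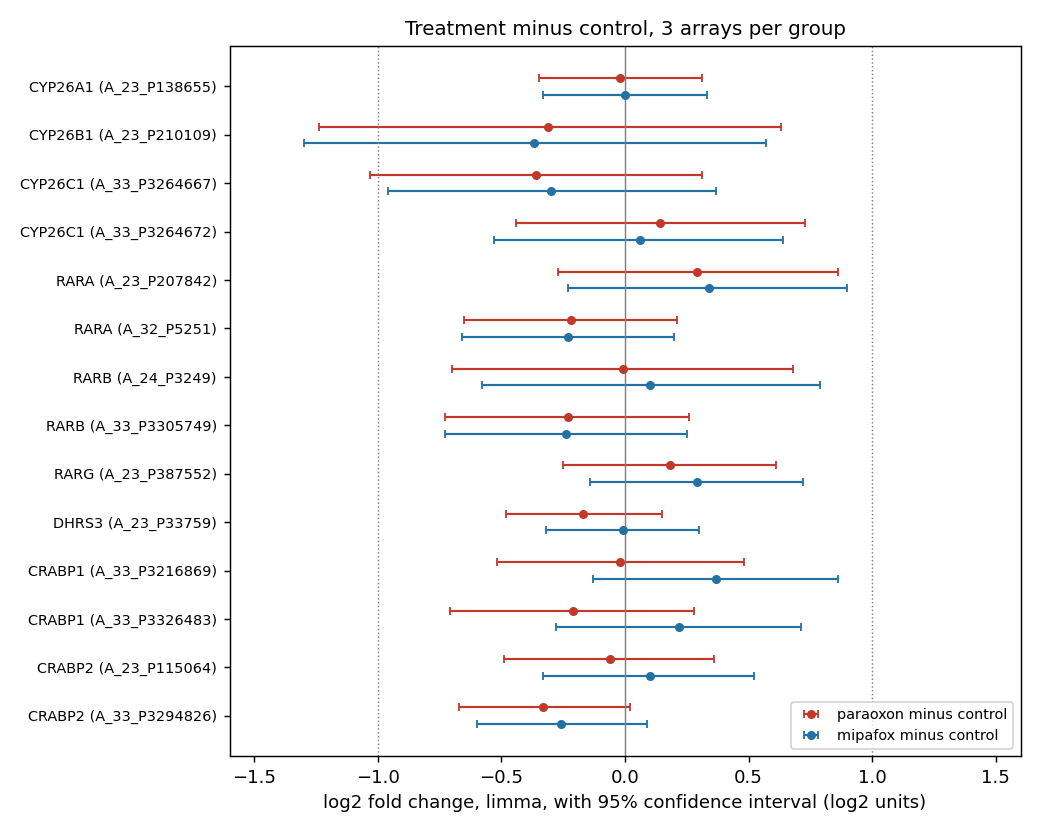
Log2 fold change against control of each of the 14 probes (x axis, log2 units), with paraoxon in red and mipafox in blue, a point per estimate and bars for the 95% confidence interval from limma; dotted lines mark ±1. Every interval includes 0, and the widest is that of CYP26B1, from -1.30 to 0.57 with mipafox.

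Among the receptors, RARA, the most widely expressed receptor, has a pair of probes whose starts are 246 bases apart. The brighter one, A_32_P5251 (chr17:38512928-38512987), read 1.96, 1.53 and 1.68 in control, 1.21, 1.53 and 1.77 with paraoxon, and 1.42, 1.34 and 1.70 with mipafox. Both treated groups reached lower than control and overlapped it, with differences of -0.22 ± 0.19 and -0.23 ± 0.19 (log2, SE; limma adjusted p = 0.694 and 0.893). The dimmer one, A_23_P207842 (chr17:38513174-38513233), read -1.94, -2.73 and -2.66 in control, -2.09, -2.29 and -2.06 with paraoxon, and -2.53, -1.86 and -1.92 with mipafox. It differed by 0.29 ± 0.25 and 0.34 ± 0.25, the opposite sign, and with the mean of both probes the RARA differences were 0.04 and 0.05.

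RARB, the receptor whose own promoter holds the pair of half-sites printed above, read -0.83, -1.13 and -0.96 in control at its brighter probe A_24_P3249 (chr3:25638622-25638681). The paraoxon arrays read -1.06, -1.55 and -0.33 and the mipafox arrays -1.32, -0.68 and -0.60. Paraoxon B and C were the lowest and the highest of all 9 arrays, and the paraoxon SD was 0.61 beside 0.15 in control. The differences were -0.01 ± 0.30 with paraoxon and 0.10 ± 0.30 with mipafox (log2, SE; limma adjusted p = 0.995 and 0.981). The dimmer probe A_33_P3305749 (chr3:25636109-25636168) lay between -2.90 and -2.00 on the 9 arrays and gave -0.23 ± 0.22 and -0.24 ± 0.22.

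RARG, the receptor prominent in embryonal carcinoma and early embryo cells, has 1 probe, A_23_P387552 (chr12:53604565-53604624). It read 0.10, -0.34 and -0.16 in control, 0.03, -0.01 and 0.12 with paraoxon, and -0.22, 0.31 and 0.39 with mipafox. Mipafox B and C were the highest of the 9, and mipafox A lay inside the control range. The differences were 0.18 ± 0.19 and 0.29 ± 0.19 (log2, SE; limma adjusted p = 0.761 and 0.840).

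Of the carriers, CRABP2 was read by a bright and a dim probe. The bright one, A_23_P115064 (chr1:156669579-156669638), read 7.48, 7.03 and 7.07 in control, 6.93, 6.98 and 7.48 with paraoxon, and 7.27, 7.32 and 7.28 with mipafox. The mipafox arrays lay inside the control range, and the control mean was 146 times the array's 75th percentile. The paraoxon level was 0.957 times control (95% confidence interval 0.714 to 1.28) and the mipafox level 1.07 times control (0.798 to 1.43; limma adjusted p = 0.935 and 0.971).

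The dim CRABP2 probe, A_33_P3294826 (chr1:156675546-156675605), designed on another transcript (NM_001199723), starts 5967 bases away from the bright one, towards the 5′ end of the gene. It read -2.29, -2.57 and -2.55 in control, -2.69, -2.90 and -2.81 with paraoxon, and -2.75, -2.52 and -2.91 with mipafox. All 3 paraoxon arrays lay below all 3 control arrays, and it was the one member probe of 14 whose groups did not overlap, where 23.4% of all tested probes did not overlap for paraoxon against control. With mipafox 0 of 14 member probes were without overlap, beside 11.8% of all tested probes. The paraoxon difference was -0.33 ± 0.15 (log2, SE), with an unadjusted p of 0.0594 and an adjusted p of 0.400 in limma, and the mipafox difference was -0.26 ± 0.15.

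CRABP1, which holds RA in the cytoplasm, was the gene with the largest difference between the compounds. Its brighter probe A_33_P3326483 (chr15:78640508-78640567) read 5.31, 5.04 and 4.87 in control, 4.82, 4.53 and 5.23 with paraoxon, and 5.19, 5.60 and 5.09 with mipafox. Paraoxon lay 0.43 ± 0.22 (log2, SE) below mipafox, with an unadjusted p of 0.0812 and an adjusted p of 0.998 in limma, and the groups overlapped through paraoxon C. Against control it was -0.21 ± 0.22 with paraoxon and 0.22 ± 0.22 with mipafox. The dimmer probe A_33_P3216869 (chr15:78640361-78640420), whose start is 147 bases away, read 3.72, 3.27 and 3.37 in control, 3.29, 3.33 and 3.68 with paraoxon, and 3.38, 4.05 and 4.03 with mipafox. Here paraoxon lay 0.38 ± 0.22 below mipafox, and mipafox A, unlike mipafox B and C, lay among the control and paraoxon arrays.

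The 9 arrays were spread over 2 slides, with all 3 control arrays beside mipafox A on slide 1, and the 3 paraoxon arrays beside mipafox B and C on slide 2, so for paraoxon against control the slide and the treatment cannot be told apart. Within slide 1, mipafox A minus the control mean was 0.18 for CYP26A1, 0.16 for DHRS3, 0.08 for the bright CRABP2 probe and 0.11 for the brighter CRABP1 probe. For the receptors' brightest probes the same difference was -0.30 for RARA, -0.35 for RARB and -0.09 for RARG, and it was -0.92 for CYP26B1 and 0.55 for the brighter CYP26C1 probe. Within slide 2, paraoxon minus mipafox B and C was 0.07 for CYP26A1, -0.07 for DHRS3, -0.17 for CRABP2, -0.48 for CRABP1, -0.30 for RARG and 0.33 for the brighter CYP26C1 probe. Between the slides, mipafox B and C minus mipafox A was 0.57 for RARG, 0.68 for RARB and 0.83 for CYP26B1, each larger than that gene's difference between either treated group and control, and -0.27 for CYP26A1. For CYP26C1 it ran the other way, at -0.74 for the brighter and -1.10 for the dimmer probe. With the slide as a block, paraoxon against control was 0.88 ± 0.38 for the brighter CYP26C1 probe (log2, SE; limma unadjusted p = 0.0489, adjusted p = 0.613), -1.14 ± 0.72 for CYP26B1 and -0.69 ± 0.50 for the brighter RARB probe. The CYP26C1 probe was the 1 of 14 with an unadjusted p under 0.05 in that fit of paraoxon against control. For paraoxon against mipafox in that fit it was the dimmer CRABP1 probe, at -0.60 ± 0.19 (limma unadjusted p = 0.0131, adjusted p = 0.843). Beside these, 2336 and 1566 of all 29134 tested probes passed. The part of the slide in these values was not tested apart from 1 array, mipafox A.

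**Figure D3:**
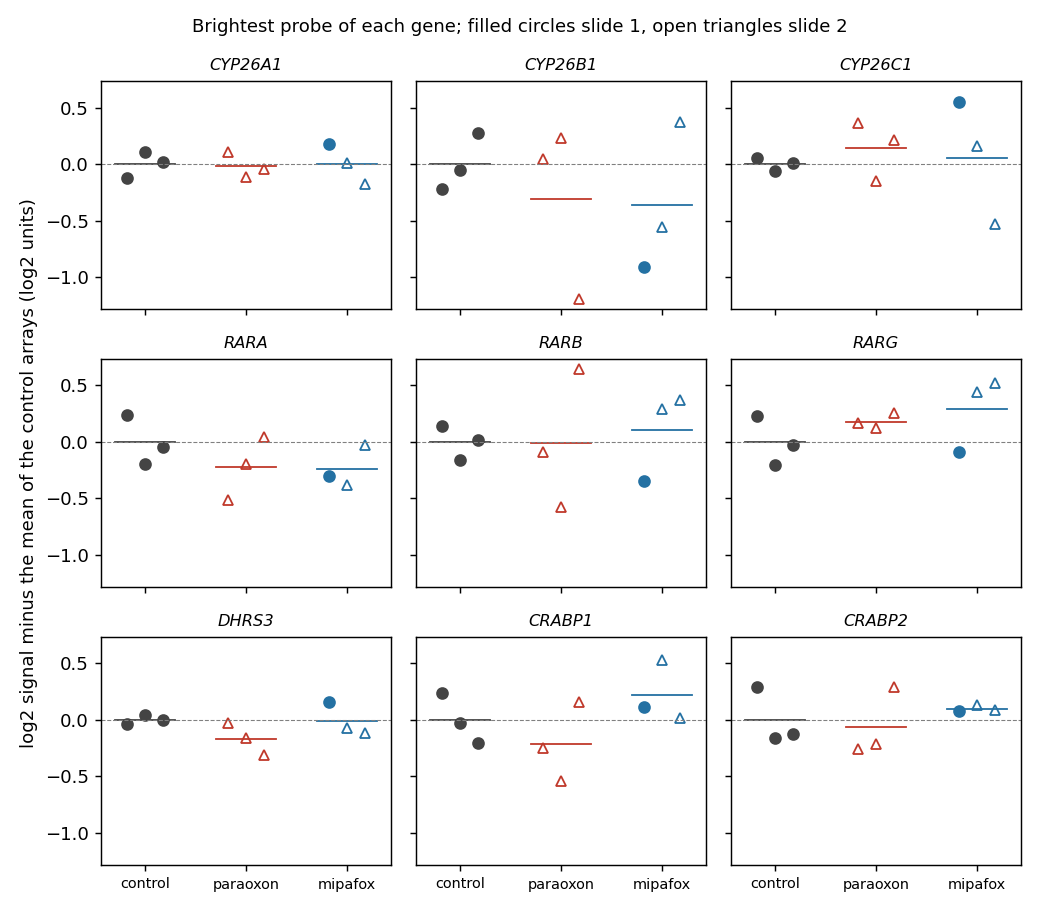
Brightest probe of each of the 9 genes, one panel per gene, with the group on the x axis and the log2 signal minus the mean of the 3 control arrays on the y axis (log2 units). Filled circles are arrays of slide 1, open triangles arrays of slide 2 and horizontal lines the group means; for RARG and RARB the mipafox array of slide 1 lies below both mipafox arrays of slide 2.

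The other genes of the pathway were counted from fixed lists, each gene by its brightest probe. Of 13 genes of retinoid supply, 10 were tested, and 0 were called in any of the 3 comparisons. ALDH1A2, the RA-making enzyme of the embryonic trunk, DHRS9 and ADH7 were not well above background on any array, while ALDH1A3, another RA-making enzyme, and RDH10, which makes retinal, were well above it on all 9. ALDH1A3 read between -2.32 and -1.55 (log2, relative to the 75th percentile) and differed by 0.40 ± 0.18 with paraoxon and 0.25 ± 0.18 with mipafox (limma adjusted p = 0.395 and 0.868). RDH10 read between -2.99 and -2.39 and differed by 0.16 ± 0.18 and 0.04 ± 0.18. STRA6, the membrane receptor that takes up retinol, differed by 0.07 ± 0.15 and 0.33 ± 0.15, and FABP5, a carrier that passes RA to another nuclear receptor, by 0.03 ± 0.18 and -0.10 ± 0.18.

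LRAT, which esterifies retinol for storage, had the smallest p among the brightest probes of these lists. Its probe was dim, with a control mean 0.0155 times the array's 75th percentile, though well above background on all 9 arrays. It read -6.28, -5.82 and -5.95 in control, -5.37, -5.00 and -5.33 with paraoxon, and -5.70, -5.65 and -5.41 with mipafox. All 6 treated arrays lay above the 3 control arrays. The arrays of slide 2 (-5.65 to -5.00) also all lay above those of slide 1 (-6.28 to -5.70), so the split followed the slide as well as the treatment. Groups without overlap were found for 23.4% of all tested probes for paraoxon against control and 11.8% for mipafox against control. The differences were 0.78 ± 0.17 with paraoxon (limma unadjusted p = 0.0014, adjusted p = 0.102) and 0.43 ± 0.17 with mipafox (unadjusted p = 0.0354, adjusted p = 0.683), and within slide 1 mipafox A lay 0.32 above control. For the 10 tested genes of supply the median difference was 0.06 with paraoxon and 0.16 with mipafox, and LRAT was the one with an unadjusted p under 0.05 in each, higher in both. Of all tested probes, 13.3% passed that rule for paraoxon against control and 6.96% for mipafox against control. RBP4, the retinol carrier of blood, and BCO1 (BCMO1 in the files), which splits carotene, had an unadjusted p under 0.05 between the compounds, paraoxon lying 0.34 ± 0.14 and 0.51 ± 0.20 below mipafox (adjusted p = 0.998 for both). Between the compounds 4.02% of all tested probes passed that rule.

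All 11 receptor partners and coregulators listed were tested and 0 were called. RXRA, the usual partner of the receptors, read between 1.48 and 2.27 and differed by -0.29 ± 0.22 with paraoxon and -0.11 ± 0.22 with mipafox, and RXRB by -0.26 ± 0.14 and -0.01 ± 0.14. The corepressor NRIP1 differed by 0.28 ± 0.22 with paraoxon and by -0.19 ± 0.22 with mipafox. With paraoxon 1 of the 11 was higher and 2 were lower at an unadjusted p under 0.05, a rule that 13.3% of all tested probes passed: RXRG, a partner of restricted expression, at 0.72 ± 0.32, and the coactivators NCOA2, at -0.78 ± 0.25, and NCOA3, at -0.48 ± 0.16 (limma adjusted p = 0.369, 0.210 and 0.236). With mipafox 0 were, and the list's median was 0.09 with paraoxon and 0.08 with mipafox. The NCOA2 probe was dim, between -6.70 and -5.26, and well above background on 8 of the 9 arrays. RXRG has another probe, A_23_P23292, designed on another transcript and well above background on 1 of the 9 arrays, so it was not tested. Its means ran the other way, at -7.26 in control, -7.98 with paraoxon and -7.83 with mipafox. Within slide 1 mipafox A lay 0.15 below control for NCOA2, 0.29 below for NCOA3 and 0.63 above for RXRG.

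Of 15 listed genes known to respond to RA, 14 were tested and 0 were called, and STRA8, a germ cell gene, was not well above background on any array. HOXB1, a hindbrain homeobox gene, read -2.83, -2.65 and -2.72 in control, -3.14, -3.35 and -4.24 with paraoxon, and -3.22, -3.61 and -3.36 with mipafox. All 6 treated arrays lay below control, with differences of -0.84 ± 0.26 and -0.66 ± 0.26 (limma unadjusted p = 0.0103 and 0.0321, adjusted p = 0.206 and 0.669), and mipafox A lay 0.49 below control within slide 1. RARRES1, a gene named for its response to RA receptor ligands, was also below control on all 6 treated arrays, at -0.37 ± 0.15 and -0.46 ± 0.15 (adjusted p = 0.322 and 0.537). Of all tested probes, 23.4% had no overlap between paraoxon and control and 11.8% none between mipafox and control. MEIS2, a homeobox gene, read 2.52 to 2.66 in control, 2.92 to 3.02 with paraoxon and 2.67 to 2.88 with mipafox, a difference of 0.36 ± 0.13 with paraoxon (adjusted p = 0.254) and 0.22 ± 0.13 with mipafox, and within slide 1 mipafox A lay 0.08 above control. For MEIS2 the arrays of slide 2 (2.88 to 3.02) all lay above those of slide 1 (2.52 to 2.67). GBX2, a gene of the midbrain and hindbrain border, differed by 0.33 ± 0.14 with mipafox (adjusted p = 0.685).

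In that list 1 gene was higher and 2 were lower at an unadjusted p under 0.05 with paraoxon, and 1 and 2 with mipafox, of 14 tested, where 13.3% and 6.96% of all tested probes passed, while the medians were -0.04 and 0.08. The orphan receptors NR2F1 and NR2F2 differed by -0.05 ± 0.26 and 0.02 ± 0.16 with paraoxon and by 0.11 ± 0.26 and 0.04 ± 0.16 with mipafox. TGM2, a transglutaminase gene, was well above background on 7 arrays at its brightest probe, with a difference of -0.46 ± 0.22 with paraoxon and -0.37 ± 0.22 with mipafox (limma adjusted p = 0.407 and 0.822). The lowest arrays of that probe were paraoxon C (-7.34) and mipafox C (-7.18). With signals so near the detection limit, the size of these differences is uncertain. The dimmer TGM2 probe A_32_P86763 was well above background on the 3 control arrays and on no treated array, so its level there has only a bound, the higher on each array of its own signal and the lowest signal well above background. That probe passed the filter through the control arrays alone, so no test of it is given here. On group means control lay 1.71-fold above the paraoxon bound and 2.07-fold above the mipafox bound. These values leave out the spread between arrays.

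**Figure D4:**
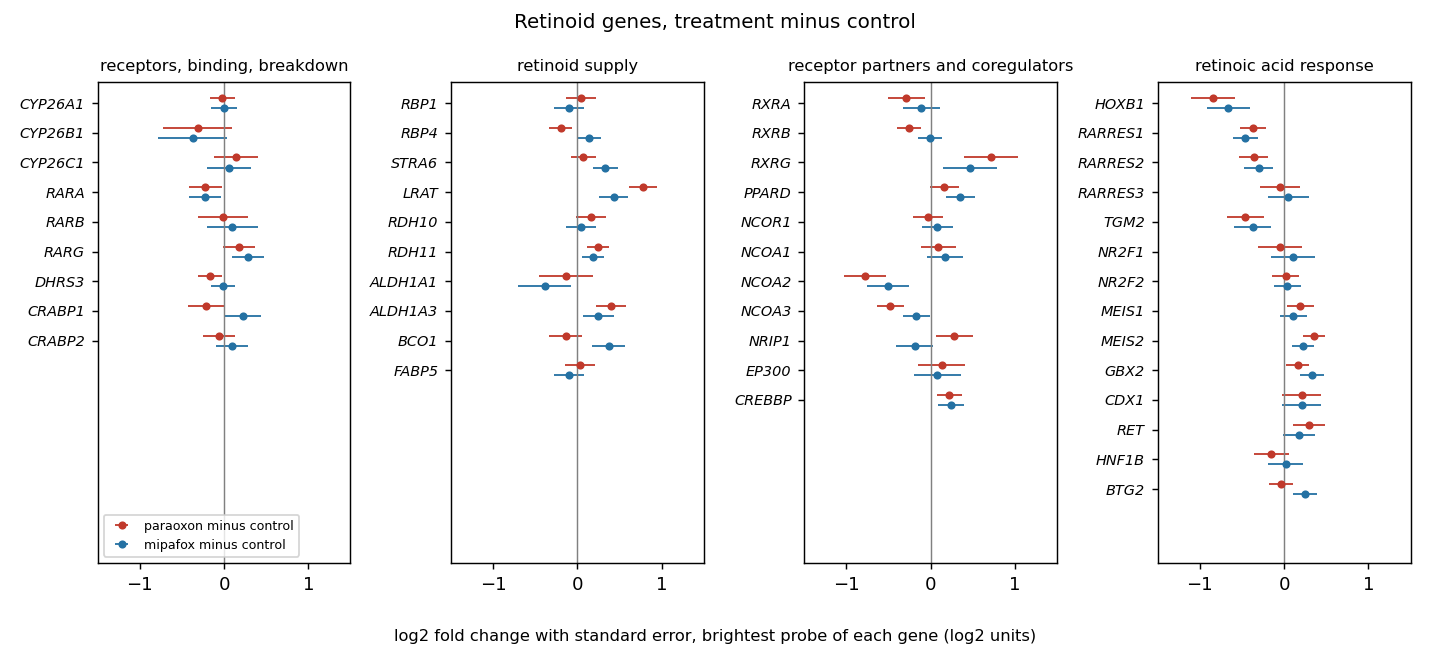
Log2 fold change against control (x axis, log2 units) with its standard error for the brightest probe of each tested gene, in 4 panels: the 9 genes of receptors, binding and breakdown, 10 of retinoid supply, 11 receptor partners and coregulators and 14 RA response genes, with paraoxon in red and mipafox in blue. The points farthest from 0 are those of HOXB1, LRAT, NCOA2 and RXRG with paraoxon, none of them called.

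The labelled cell was checked against its markers. All 7 markers of pluripotent cells and 5 of 6 of neural progenitors and neurons, NES, PAX6 and TUBB3 among them, were well above background on all 9 arrays, and SOX1 was so on 1 array. Of 6 markers of glia, endoderm and fibroblasts, GFAP was not well above background on any array, SOX17, AFP and DCN were well above it on 1 or 2 arrays, and S100B and COL1A1 on all 9. The summed linear level of the pluripotent markers, in multiples of the 75th percentile, was 181 to 185 on control, 167 to 186 on paraoxon and 147 to 216 on mipafox arrays. That of the neural list was 39.4 to 47.4, 37.9 to 40.8 and 39.8 to 45.6, and that of the last list 3.21 to 3.51, 2.83 to 3.19 and 2.91 to 3.88. Their part in the values above was not tested.

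Finally, the probes whose pattern over the 9 arrays was most like that of each gene are given as a description, without CYP26B1, whose probe was not well above background on all 9. Pearson's r was computed against 18251 or 18252 probes of other genes whose symbol is in RefSeq, with a value on all 9 arrays; the points share their group, slide and array scaling, and with so many probes a high r is to be found for any pattern. The most alike were CA5B for CYP26A1 (r = 0.964), GAL3ST1 for CYP26C1 (0.973), CBX5 for RARA (0.909), IDH3A for RARB (0.963) and ATP2A1 for RARG (0.968). For DHRS3 it was CRCP (0.989), for CRABP1 CTU1 (0.996) and for CRABP2 WFS1 (0.959). The next were SUSD1 for CYP26A1 (0.957), FAM78B for CYP26C1 (0.969), ST7-AS1 for RARA (0.895), PPHLN1 for RARB (0.951), ATG9B for RARG (0.966), LRRC45 for DHRS3 (0.953), DHX35 for CRABP1 (0.976) and SIPA1L3 for CRABP2 (0.959). None of these 16 was another of the 9 genes.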

How the data were processed

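RNA of NT2 cells was measured on 9 one-colour arrays on 2 slides, 3 per group. The authors deposited the scanner output of Agilent Feature Extraction 10.5.1.1, with processed, mean and background signals as linear intensity values, and their own processed log2 values for 29527 probes. The log2 table had array medians from 8.35 to 8.41 and correlated with the values used here at 0.983 or more per array. It served as an alternative, and how its background was corrected is not given in the sources used here.

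Each array was centred by subtracting its 75th percentile (802 to 1590) from the processed signal, both as log2, without control and outlier spots, and a probe's spots were averaged. A probe counted as well above background on an array where 0.5 or more of its spots were marked so (65.7% to 73.6% of probes). The 29134 probes well above background on all 3 arrays of 1 group or more, with 2 or more values per group, were fitted with limma 3.58.1 (R 4.3.3), one mean per group over 9 arrays, with Benjamini-Hochberg adjustment. The fit was tested on simulated data. The number of arrays limits the precision. All 14 member probes, with 23 spots, had values on 9 arrays, and 0 saturated spots were found among them. The text names the 9 members with every probe, fixed genes of each list and listed genes with an unadjusted p under 0.05. A gene in a list is represented by its brightest probe. From the lists, 2 genes are not reported here. The members and lists were chosen with earlier results of these data known. The alternatives were other background corrections, normalizations, filters, variance models and weights, the slide or replicate letter as a block, and each array left out. Exons and untranslated regions of the probes were not analysed here. Sequences are from RefSeq. Figures were drawn with matplotlib 3.10.9.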

Additional observations from a re-analysis of the deposited data

How the results depend on the processing

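The count of member probes called was 0 in each of the 3 comparisons under every alternative run, each left-out array and the replicate block included. Over all tested probes the counts were less stable: with array weights limma called 671 probes for paraoxon and 800 for mipafox, and without mipafox A 276 and 76, beside 0 and 0. The weights were highest for control B (4.37) on slide 1 and for paraoxon A (3.33) and mipafox B (3.05) on slide 2. Control C had 1.80 and the other arrays 0.285 to 0.723. Results with array weights therefore lean on few arrays, and across the slides. With array weights, 1 of 14 member probes had an adjusted p under 0.05 for paraoxon (a RARA probe) and 4 for mipafox (of RARA, RARG and both of CRABP1), beside 13.8% and 19.8% of all tested probes, with log2 differences from 0.50 to 0.73. Over all alternatives, 30 of 865 tests of member probes had an unadjusted p under 0.05 in limma. These tests repeat the same 14 probes on shared arrays, so the count is no rate of independent tests. Array weights gave 3 of 14 for paraoxon against control, 6 for mipafox against control and 3 for paraoxon against mipafox. Beside these, 8711, 10832 and 4197 of all 29134 tested probes passed under the same weights. The letters A, B and C did not pair the arrays, since deviations of same-lettered arrays from their group means correlated across probes between -0.598 and 0.567. Every group holds each letter, so the replicate block could change the standard errors but not the log2 differences (CYP26A1 with paraoxon -0.02, RARG with mipafox 0.29).

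The fold changes of the brightest probes were recomputed 582 times, and the sign turned 82 times. Many of the 582 could not turn a sign, since they leave the fold change of a probe as it is. Such were the other filters, the variance model, the replicate block and leaving out arrays of a group outside the comparison. The share of 82 in 582 is therefore no measure of how stable the signs were. In 70 of the 82 turns both estimates were smaller than their standard errors. The other 12 (paraoxon or mipafox against control unless said) were, with the authors' processed values, CYP26A1 with paraoxon (0.25) and mipafox (0.19) and CRABP2 with paraoxon (0.17). With the slide as a block they were CYP26A1 (0.25), RARG (-0.39) and DHRS3 (0.09) with paraoxon and RARG with mipafox (-0.09). On slide 1 alone they were RARB (-0.35) and RARG (-0.09) with mipafox, and with the mean of all probes RARA with paraoxon (0.04) and mipafox (0.05). Paraoxon against mipafox turned for CYP26C1 with mipafox C left out, where leaving out an array gave -0.21 to 0.33. With paraoxon the slide block also moved the median of all probes to 0.10, CYP26B1 to -1.14, CYP26C1 to 0.88 and RARB to -0.69. The causes were not tested. The dim CYP26B1 probe carries the widest error.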
